A study of Mus musculus with 2 samples.

Results

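A set of 10 genes of zinc-dependent histone deacetylases, called the family below, was followed in a map of open chromatin of mouse liver. The members looked up were *Hdac1*, *Hdac2*, *Hdac3*, *Hdac4*, *Hdac5*, *Hdac6*, *Hdac7*, *Hdac8*, *Hdac9* and *Hdac11*. A region belonged to a member when the symbol of its closest transcription start site (TSS) was that of the gene. By this rule 9 of the 10 genes had a region, and together they held 28 of the 69549 distinct regions, which in all were spread over 27433 genes. A region whose centre lay within 1 kb of the TSS was a promoter region, which gave 9 promoter regions of 7 genes and 19 other regions. *Hdac7* and *Hdac9* had other regions only, and *Hdac3* had none.

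Histone deacetylases remove acetyl groups from lysines of histones and of other proteins, and histone acetylation goes with open chromatin and transcription. Class I enzymes are nuclear, and HDAC1, HDAC2 and HDAC3 are the catalytic subunits of large corepressor complexes. Class IIa enzymes have little activity of their own, shuttle between nucleus and cytosol, and bind transcription factors such as MEF2. In liver, HDAC3 is known for holding down lipid synthesis genes, and class IIa enzymes for the response of glucose production genes to glucagon. The study asked how METTL3, an enzyme known for methylating adenosine in RNA, affects liver genes, and it followed HDAC1 and HDAC2 as partners of METTL3.

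The control library came from *Mettl3* flox/flox mice and the other from *Mettl3*-HKO mice (*Mettl3* flox/flox Alb-Cre+/-), all of the C57BL/6 background, fed normal chow and 8 weeks of age. Both groups carry the floxed alleles, and the labels list no Alb-Cre for the controls. Alb-Cre uses the albumin promoter, and the study describes the deletion as specific to hepatocytes. Nuclei of liver samples of 4 mice were pooled into 1 library per group, so there is no replicate error and no test across mice. Every interval below is a 95% interval for counting error only. In pooled tissue a lower share of cells in which a region is open and less opening per cell cannot be told apart. The labels do not give the sex of the mice.

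The libraries had 52826209 and 58038309 reads behind their scaling, control first, of which 31.7% and 22.3% lay on regions. The log2 ratio of *Mettl3*-HKO over control, taken from the counts with 1 read added on the scale of these totals, had a median of −0.38 over all regions. A centred ratio is given below where it matters, and it is the ratio minus this median. *Mettl3* itself had 566 counts at its promoter region in the control and 392 in *Mettl3*-HKO, which does not show whether its exons were deleted. Among marker genes of liver cell types, the 8 hepatocyte markers summed to 72.6 RPM (reads scaled to a common library size) at their promoter regions in the control and 49.97 RPM in *Mettl3*-HKO. For the 7 of 8 endothelial markers with a promoter region the sums were 3.03 and 7.01 RPM.

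Reference promoter windows from RefSeq show what lies under these regions. Each window runs from 250 bases before to 50 after a RefSeq gene start on GRCm38.p6, and 12 windows of 8 members were given, of which 8 windows of 7 genes touched a region. Shown are *Hdac2*, whose promoter region had the lowest ratio of the strongest promoter regions (chr10:36974294-36974593, plus strand), *Hdac4*, with one of the ratios nearest to 0 (chr1:92180292-92180591, minus strand), the X-linked *Hdac6* (chrX:7947840-7948139, minus strand), the internal start of *Hdac7* (chr15:97831446-97831745, minus strand) and *Hdac8*, the weakest of the strongest promoter regions (chrX:102505109-102505408, minus strand). Each line reads in the direction of transcription, and capitals mark matches on either strand to any of 7 short motifs. These were GGGCGG, which is known from binding of Sp1, CCAAT, which is known from NF-Y, and CACGTG, which is the E box. TATAAA stands for the TATA box, and CCGGAAG is known from ETS factors. TGCGCA is known from NRF1, and TGACGTC is known from CREB.
Hdac2: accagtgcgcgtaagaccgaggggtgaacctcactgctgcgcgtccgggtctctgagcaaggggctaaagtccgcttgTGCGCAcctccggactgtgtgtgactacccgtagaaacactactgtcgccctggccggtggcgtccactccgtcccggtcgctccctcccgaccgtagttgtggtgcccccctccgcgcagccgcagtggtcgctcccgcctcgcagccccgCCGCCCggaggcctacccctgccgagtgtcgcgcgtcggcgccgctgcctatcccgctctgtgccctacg
Hdac4: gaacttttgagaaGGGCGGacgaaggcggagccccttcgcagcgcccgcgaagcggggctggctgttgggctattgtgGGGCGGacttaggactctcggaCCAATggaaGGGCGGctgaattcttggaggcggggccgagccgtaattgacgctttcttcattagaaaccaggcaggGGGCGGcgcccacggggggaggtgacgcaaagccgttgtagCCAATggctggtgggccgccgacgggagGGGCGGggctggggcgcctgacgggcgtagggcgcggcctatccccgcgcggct
Hdac6: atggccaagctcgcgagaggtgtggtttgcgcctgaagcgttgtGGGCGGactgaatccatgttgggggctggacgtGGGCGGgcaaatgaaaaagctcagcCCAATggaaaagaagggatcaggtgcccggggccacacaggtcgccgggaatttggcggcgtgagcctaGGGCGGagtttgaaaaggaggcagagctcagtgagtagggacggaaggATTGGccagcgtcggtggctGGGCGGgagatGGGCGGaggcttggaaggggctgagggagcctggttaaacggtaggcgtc
Hdac7: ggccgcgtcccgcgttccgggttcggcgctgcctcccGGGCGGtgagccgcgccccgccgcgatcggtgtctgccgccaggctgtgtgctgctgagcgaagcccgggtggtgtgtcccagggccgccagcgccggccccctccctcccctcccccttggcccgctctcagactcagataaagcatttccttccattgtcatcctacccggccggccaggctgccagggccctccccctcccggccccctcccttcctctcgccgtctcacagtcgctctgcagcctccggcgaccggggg
Hdac8: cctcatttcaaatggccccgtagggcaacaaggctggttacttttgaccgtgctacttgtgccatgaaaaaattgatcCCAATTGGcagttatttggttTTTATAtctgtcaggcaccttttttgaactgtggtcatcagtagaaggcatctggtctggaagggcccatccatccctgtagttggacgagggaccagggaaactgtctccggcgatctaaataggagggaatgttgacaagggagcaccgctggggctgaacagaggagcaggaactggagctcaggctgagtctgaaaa

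These windows differed in CpG content. The *Hdac2* window held 36 CpG dinucleotides and was 69.7% G or C, and the *Hdac4* window held 32 and was 68.0%. At *Hdac8* there were 6 CpG dinucleotides and 49.7% G or C, below the 52.7% that is the median of all 32817 windows and the 61.3% of the 13545 windows on a region. The *Hdac8* window was also the only window on a region, of 8, that matched TATAAA, a sequence in 13.6% of all windows and 6.90% of those on a region, and its 2 CCAAT matches overlap on opposite strands. The *Hdac4* and *Hdac6* windows had the same makeup of matches, with 5 to GGGCGG and 2 to CCAAT, although their promoter ratios were not alike. GGGCGG was present in 35.6% of all windows and 63.7% of those on a region, and CCAAT in 37.4% and 38.1%. The *Hdac5* window at its RefSeq start was the only window of a member that matched CACGTG (7.15% of all windows) or TGACGTC (3.21%), and CCGGAAG (8.86%) matched in none. TGCGCA, which 7.75% of all windows hold, matched at *Hdac2* and *Hdac11*. Over the windows on a region, the median log2 ratio ran from −0.54 in the lowest to −0.60 in the highest of 4 equal groups by G and C content.

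At the promoters the scaled counts were lower in *Mettl3*-HKO at 8 of 9 regions, all but the second region of *Hdac8*. Over the whole map the ratio was below 0 at 12073 of 14387 promoter regions. Among the strongest regions of the 7 genes, that of *Hdac2* was lowest in ratio and those of *Hdac1* and *Hdac4* were nearest to 0. With the strongest promoter region standing for each gene, the ratio was above 0 at 0 of 7 genes, against 14.9% of all genes, and ran from −1.37 to −0.30 with a median of −0.998. The median over the 13163 genes with a promoter region was −0.57. Of the 9 promoter regions, 4 were at least 2-fold lower in *Mettl3*-HKO, namely that of *Hdac2*, both of *Hdac5* and that of *Hdac6*, and 16.3% of all promoter regions were. None was at least 2-fold higher, against 4.07% of all promoter regions. These numbers depend on the scaling. After centring, the median of the 7 genes was −0.62 against −0.19 for all genes, and the ratios of *Hdac1* and *Hdac4* turned to 0.075 and 0.059. Only 1 promoter region, the second of *Hdac5*, stayed at least 2-fold lower, where 5% of all promoter regions did. It had a peak only in the control, so it was listed only through the library in which it was higher. Without centring, 3 promoter regions with a peak in both libraries were at least 2-fold lower.

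**Figure D1:**
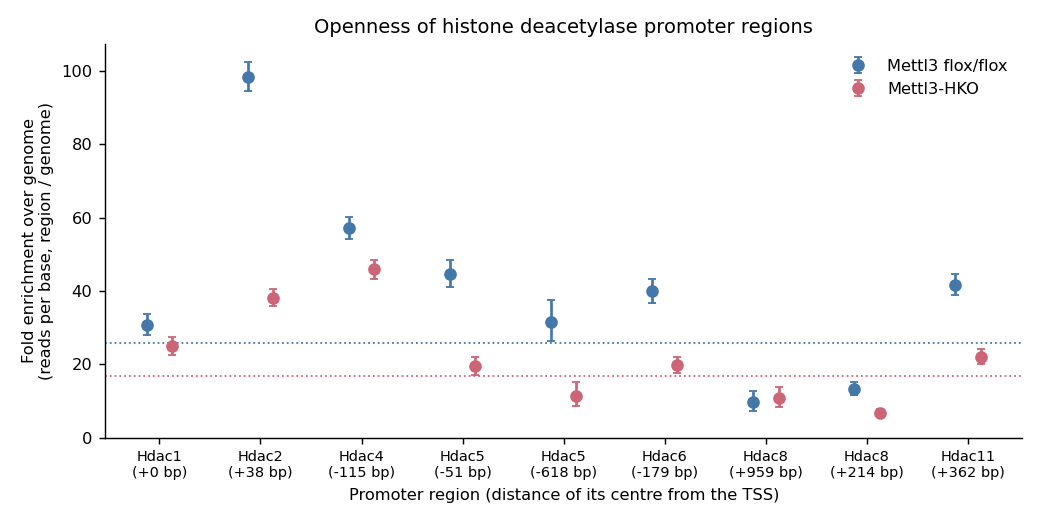
Fold enrichment of reads per base over the genome (vertical axis, from 0) at the 9 promoter regions, with blue points for the control and red points for the Mettl3-HKO library, 95% counting intervals as bars and dotted lines at the medians of all promoter regions of each library. Hdac2 is at 98.4 in the control and 38.1 in Mettl3-HKO, whereas Hdac4 is at 57.2 and 45.8.

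Among class I genes, *Hdac1* and *Hdac2* encode closely related enzymes that share complexes, yet their promoter ratios differed. *Hdac1* had 458 counts in the control and 408 in *Mettl3*-HKO in its region on chromosome 4 from 129542329 to 129543099, which spans the TSS and ends in intron 1. Its log2 ratio was −0.30 (interval −0.50 to −0.11), higher than 71.8% of all promoter regions. *Hdac2* had 2352 counts in the control and 1001 in *Mettl3*-HKO in its region on chromosome 10 from 36973991 to 36975226, centred in the 5′ UTR. Its log2 ratio was −1.37 (interval −1.48 to −1.26), and 5.19% of all promoter regions were lower. Promoter regions of like signal do not usually stand so low, since the 1000 nearest in mean RPM had a median of −0.65 and the *Hdac2* ratio lay at their 1.45th percentile, and that of *Hdac1* at the 84.65th among its own 1000. The difference between the genes, *Hdac1* minus *Hdac2*, was 1.07 on the log2 scale (exact conditional interval 0.84 to 1.29), a value that no scaling of the libraries can change.

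*Hdac8* encodes a class I enzyme that acts outside those complexes and deacetylates cohesin. Its main promoter region, on chromosome X from 102504702 to 102505560 and centred in exon 1, had 219 counts in the control and 120 in *Mettl3*-HKO, and its log2 ratio of −0.998 (interval −1.34 to −0.68) fell just short of 2-fold. A second region 959 bp into the gene, from 102504243 to 102504530, had 53 and 65 counts and a ratio of 0.15 (interval −0.39 to 0.71). The promoter of *Hdac8* thus held neighbouring regions that differed, by 1.16 on the log2 scale (interval 0.52 to 1.81). *Hdac3* could not be assigned a region by symbol. RefSeq places it on chromosome 18 from 37936971 to 37955015. The region from 37954628 to 37955836, which overlaps that end of the gene, is listed as the promoter of the neighbouring *Rell2*. It had 451 counts in the control and 422 in *Mettl3*-HKO, and its log2 ratio was −0.23 (interval −0.43 to −0.037) and turned to 0.15 after centring. A further region inside the span of *Hdac3*, from 37953382 to 37953726, had 47 and 101 counts and a ratio of 0.95 (interval 0.45 to 1.499), with a peak in *Mettl3*-HKO alone.

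Class IIa genes were split. *Hdac4* encodes a class IIa enzyme that represses MEF2 targets, and its promoter region on chromosome 1 from 92179815 to 92181098 had 1419 counts in the control and 1250 in *Mettl3*-HKO. The log2 ratio of −0.32 (interval −0.43 to −0.21) was at the 88.55th percentile of the 1000 promoter regions nearest in signal. *Hdac5*, close to *Hdac4* in sequence, had 553 and 264 counts in its region on chromosome 11 from 102218660 to 102219301, a ratio of −1.20 (interval −1.42 to −0.99). The smaller region beside it, from 102219446 to 102219650, had 124 and 49 counts, a ratio of −1.46 (interval −1.98 to −0.99), with a peak called only in the control. *Hdac4* minus *Hdac5* was 0.88 (interval 0.64 to 1.13). The TSS that the table uses for *Hdac5* lies inside the RefSeq gene. At the RefSeq start, a region from 102229786 to 102230624 that the table gives to an unnamed gene had 311 and 238 counts and a ratio of −0.52 (interval −0.77 to −0.27), higher than at the internal start.

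*Hdac6*, *Hdac8* and *Hdac11* lay between these extremes. *Hdac6* encodes a class IIb enzyme that deacetylates tubulin in the cytosol. Its promoter region, on chromosome X from 7947619 to 7948416, had 615 counts in the control and 334 in *Mettl3*-HKO, and its log2 ratio was −1.01 (interval −1.21 to −0.82). *Hdac11*, the only class IV gene, encodes an enzyme that also removes fatty acyl groups, and its promoter region on chromosome 6 from 91156516 to 91157539 had 822 and 479 counts and a ratio of −0.91 (interval −1.08 to −0.75). The intervals between the pair on chromosome X and *Hdac11* held 0, with *Hdac6* minus *Hdac11* at −0.10 (interval −0.36 to 0.16) and *Hdac8* minus *Hdac11* at −0.089 (interval −0.46 to 0.28). The 432 promoter regions on that chromosome had a median ratio of −0.67 and the 13942 on autosomes −0.56.

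In all, the intervals of 14 of the 21 pairwise differences between the 7 promoters left out 0. The share over pairs of other promoters was not computed, so this count is not particular to the family. *Hdac1* and *Hdac4* were each above all of the other 5 and could not be told from each other, with a difference of 0.016 (interval −0.21 to 0.24). *Hdac2* was below *Hdac6*, *Hdac8* and *Hdac11*, but its difference from *Hdac5* was −0.17 (interval −0.41 to 0.077).

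**Figure D2:**
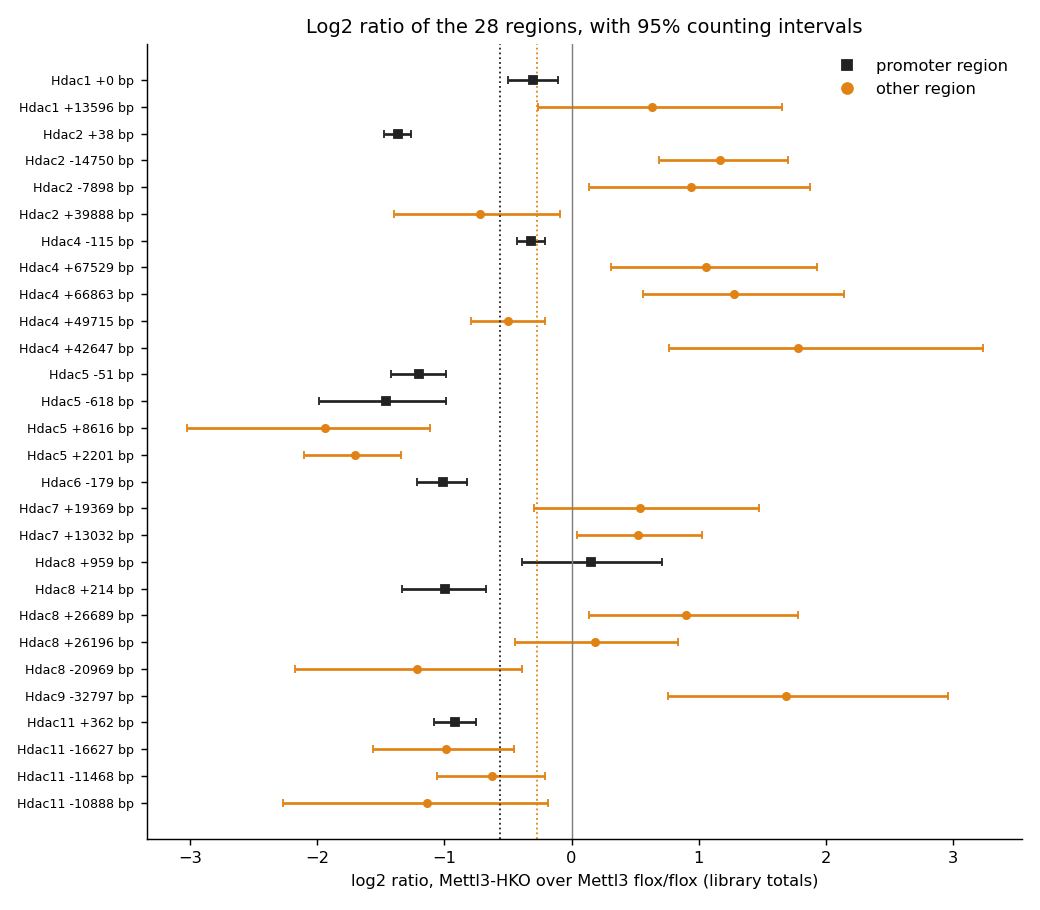
Log2 ratio of Mettl3-HKO over control (horizontal axis) for each of the 28 regions, named by gene and distance of the centre from the TSS, with black squares for promoter regions, orange circles for other regions, bars for 95% counting intervals and dotted lines at the medians of all promoter regions (black) and all other regions (orange). Of the 9 promoter regions 8 lie below 0, against 12073 of all 14387 promoter regions. Of the 19 other regions 11 lie above 0, against 40.2% of all other regions. At 8 of these 11 a peak was called in Mettl3-HKO alone.

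The order of the promoters by openness changed with these ratios. Fold enrichment, the reads per base of a region over those of the genome, allows genes to be compared within a library. In the control the order was *Hdac2* at 98.4, *Hdac4* at 57.2, *Hdac5* at 44.6, *Hdac11* at 41.5, *Hdac6* at 39.9, *Hdac1* at 30.8 and *Hdac8* at 13.2. *Hdac2* was 1.72 times as high as *Hdac4* there (interval 1.61 to 1.84), while *Hdac5* was not separated from *Hdac11*, nor *Hdac11* from *Hdac6*. In the *Mettl3*-HKO library the order was *Hdac4* at 45.8, *Hdac2* at 38.1, *Hdac1* at 24.96, *Hdac11* at 22.1, *Hdac6* at 19.8, *Hdac5* at 19.4 and *Hdac8* at 6.63. *Hdac4* was then 1.20 times as high as *Hdac2* (interval 1.11 to 1.31), *Hdac1* came next, and *Hdac1*, *Hdac11*, *Hdac6* and *Hdac5* were not separated from 1 neighbour to the next. *Hdac8* was the lowest in both libraries and exceeded 26.8% of promoter regions in the control and 12.3% in *Mettl3*-HKO.

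Away from the promoters the regions were mostly weaker and went both ways. The 19 other regions had 8 to 236 counts in the control and 13 to 178 in *Mettl3*-HKO. Their ratio was above 0 at 11 and below 0 at 8, with a median of 0.52. The 55162 other regions of the whole map had a median of −0.27, and 40.2% of them were above 0. Of the 19, 5 were at least 2-fold higher in *Mettl3*-HKO, against 15.6% of all other regions, and 4 were at least 2-fold lower, against 18.8%. After centring these numbers were 8 and 2, against 23.5% and 8.65%. A peak was called in *Mettl3*-HKO alone at 8 of the 19 (42.1%, against 24.9% of all other regions) and only in the control at 4 (21.1%, against 19.1%). The first group had a median of 0.998 and the second of −1.46, and a region with a peak in 1 library is listed only through that library, which bears on its side of 0. The 7 with a peak in both had a median of −0.50, and the corresponding regions of the whole map −0.40.

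**Figure D3:**
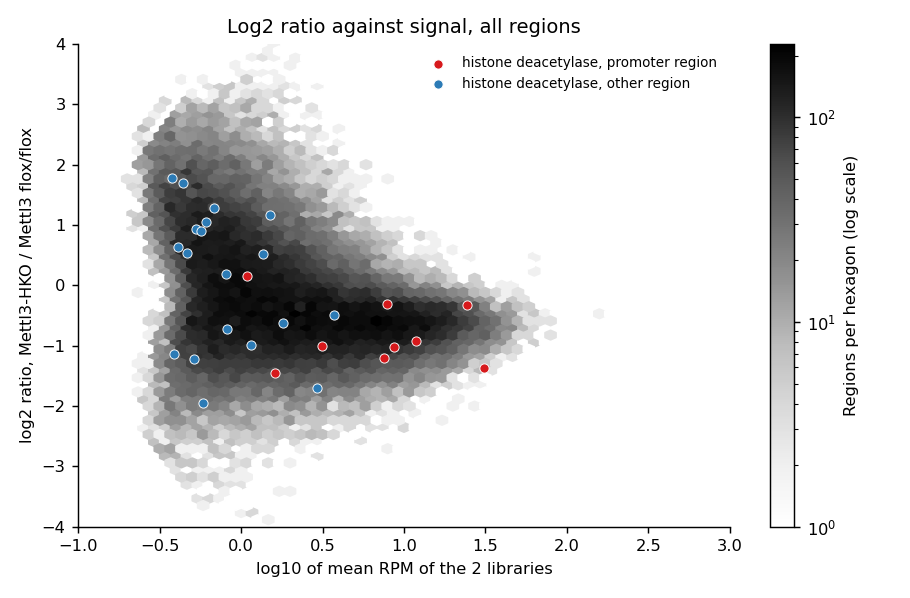
Log2 ratio of Mettl3-HKO over control (vertical axis) against log10 of the mean RPM of the 2 libraries (horizontal axis) for all 69549 regions as grey hexagons, darker where there are more regions on a log scale, with promoter regions of the family in red and its other regions in blue. The other regions with ratios above 0 lie towards the weak end, where the whole map spreads both ways, and Hdac2 is the strongest promoter region and near the lower edge.

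*Hdac2* and *Hdac4* had 5 distal regions with ratios above that of their promoter beyond the interval, although 4 of the 5 had a peak in *Mettl3*-HKO alone and so were in the table only through the library in which they were higher. Upstream of *Hdac2*, the region at −14750 bp, from 36959588 to 36960052, had 48 counts in the control and 120 in *Mettl3*-HKO. Its ratio of 1.17 (interval 0.69 to 1.70) exceeded that of the promoter by 2.55 (interval 2.05 to 3.08), the largest such difference in the family. A second upstream region at −7898 bp had 18 and 39 counts, a ratio of 0.94 (interval 0.14 to 1.87), with a peak in *Mettl3*-HKO alone. The table lists no overlapping gene for either. The third, at 39888 bp and so beyond the end of the gene, was lower, with 53 and 35 counts and a ratio of −0.72 (interval −1.39 to −0.092).

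The 4 other regions of *Hdac4* all lie in its long intron 2. In 3 of them a peak was called in *Mettl3*-HKO alone. The region from 92113331 to 92113626 had 20 counts in the control and 55 in *Mettl3*-HKO, a ratio of 1.28 (interval 0.56 to 2.14). Its neighbour from 92112689 to 92112935 had 20 and 47, a ratio of 1.06 (interval 0.31 to 1.93). The weakest, from 92137520 to 92137868, had 8 and 33, a ratio of 1.78 (interval 0.77 to 3.23). The strongest, from 92130326 to 92130927, went the other way with 229 and 178 counts and a ratio of −0.50 (interval −0.79 to −0.21), not distinguishable from the ratio of the promoter, and it turned to 0.014 when scaled to the reads in regions.

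Further regions inside *Hdac4* are assigned by the table to unnamed genes nearer to them. Their positions were compared with the RefSeq spans of the genes after the values were seen. *Hdac4* held 9 such regions, of which 7 had a ratio above 0 and 3 were at least 2-fold higher, against 40.2% and 15.6% of all other regions. Of the 9, 1 with a ratio of 0.35 is itself the promoter region of an unnamed gene, and 16.1% of all promoter regions had a ratio above 0. A peak was called in *Mettl3*-HKO alone at 4 of the 9, the 3 at least 2-fold higher among them. The highest, in intron 3 from 92051113 to 92051422, had 9 counts in the control and 59 in *Mettl3*-HKO, a ratio of 2.45 (interval 1.56 to 3.77). The strongest of the 9, from 92100335 to 92101013 in intron 2, had 375 and 318 counts and a ratio of −0.37 (interval −0.59 to −0.15). After centring its ratio was 0.0045.

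**Figure D4:**
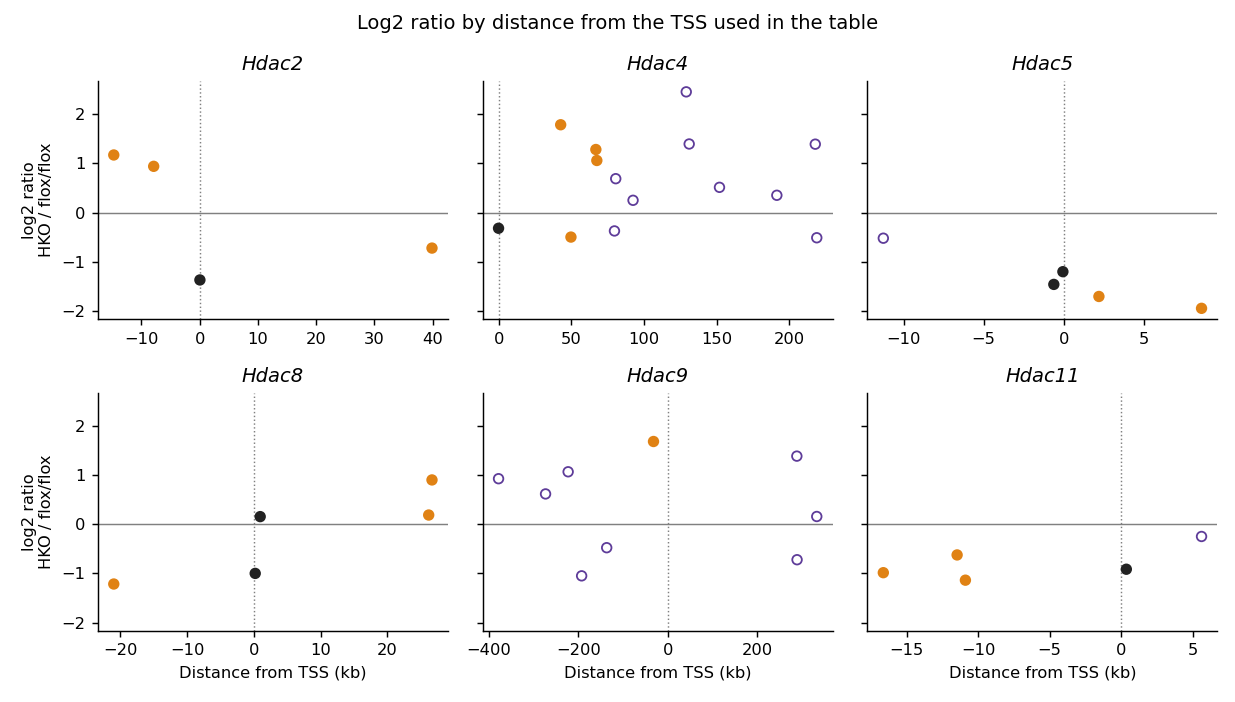
Log2 ratio of Mettl3-HKO over control (vertical axis) against distance from the TSS in kb (horizontal axis, positive into the gene), for 6 members, with black points for promoter regions, orange points for other regions and open purple circles for regions inside the RefSeq gene that the table assigns to another gene. Hdac4 and Hdac9 hold most of the regions above 0, whereas every point of Hdac5 and Hdac11 is below 0.

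*Hdac5* was the only member whose other regions were both at least 2-fold lower. In intron 1, the region from 102216550 to 102216906 had 236 counts in the control and 79 in *Mettl3*-HKO, a ratio of −1.70 (interval −2.10 to −1.34). The region from 102210199 to 102210428 had 48 and 13, a ratio of −1.94 (interval −3.03 to −1.11). The first differed from the promoter of its own gene by −0.51 (interval −0.96 to −0.076) and the second by −0.82 (interval −1.85 to 0.12). Both had a peak in the control alone, so they were listed only through the library in which they were higher. Of the 4 regions that the table gives to *Hdac5*, promoter regions included, 4 were at least 2-fold lower, against 16.3% of all promoter regions and 18.8% of all other regions. After centring 3 of the 4 were, and these 3 had a peak only in the control, whereas the main promoter region was at −0.82.

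The 3 regions of *Hdac11* upstream of the gene had ratios below 0, and the weakest of them was listed only through a peak in the control. At −16627 bp the counts were 80 in the control and 44 in *Mettl3*-HKO, a ratio of −0.98 (interval −1.56 to −0.45). At −11468 bp they were 114 and 81, a ratio of −0.62 (interval −1.06 to −0.21), and at −10888 bp 27 and 13, a ratio of −1.14 (interval −2.27 to −0.19). None of these differed from the promoter of *Hdac11* beyond its interval. A region in intron 3 that is nearer to an unnamed gene, from 91161805 to 91162764, had 462 and 427 counts and a ratio of −0.25 (interval −0.44 to −0.056).

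Regions of *Hdac8* and *Hdac1* beyond the promoter were mixed. Within intron 4 of *Hdac8*, the region from 102478505 to 102478807 had 20 counts in the control and 42 in *Mettl3*-HKO, a ratio of 0.90 (interval 0.13 to 1.78), and its neighbour from 102479002 to 102479297 had 39 and 49, a ratio of 0.19 (interval −0.44 to 0.84). The first had a peak in *Mettl3*-HKO alone and so was listed only through the library in which it was higher. The second, with a peak in both, was above the *Hdac8* promoter by 1.19 (interval 0.47 to 1.93). The region at −20969 bp, which lies in intron 29 of *Phka1*, had 37 and 17 counts, a ratio of −1.21 (interval −2.18 to −0.39), with a peak only in the control. For *Hdac1* the only other region, in intron 2 from 129528981 to 129529254, had 16 and 28 counts and a peak in *Mettl3*-HKO alone, and its ratio of 0.63 (interval −0.26 to 1.66) was not distinguishable from 0 at this depth.

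*Hdac7* and *Hdac9*, class IIa genes without a promoter region by the rule, had 3 weak regions in all, 2 of them listed only through a peak in *Mettl3*-HKO. *Hdac7* is known from endothelial cells. In its intron 1, the region from 97831099 to 97831841 had 58 counts in the control and 92 in *Mettl3*-HKO, a ratio of 0.52 (interval 0.040 to 1.03), and that from 97825027 to 97825240 had 19 and 31, a ratio of 0.54 (interval −0.30 to 1.48), with a peak in *Mettl3*-HKO alone. The first covers the GC-rich internal start printed above, whereas no region lay at the TSS the table uses. Its fold enrichment was 4.11 in the control and 5.89 in *Mettl3*-HKO, against medians of 25.8 and 16.7 over all promoter regions. A further region in intron 17 of *Hdac7*, assigned to a neighbouring gene, had 38 and 57 counts and a ratio of 0.44 (interval −0.17 to 1.08). *Hdac9*, which represses MEF2 targets as *Hdac4* does, had 1 region, at −32797 bp from its TSS, with 10 and 38 counts, a ratio of 1.69 (interval 0.76 to 2.96) and a peak in *Mettl3*-HKO alone. Neither of the RefSeq windows of *Hdac9* touched a region. Inside its RefSeq span lay 8 more regions, 5 with a ratio above 0, against 40.2% of all other regions, and 4 of these 5 had a peak in *Mettl3*-HKO alone, the highest included. The 8 ran from the region at 34720828 to 34721428 with 206 and 109 counts (−1.05, interval −1.40 to −0.71) to that at 34238703 to 34239217 with 28 and 82 counts (1.38, interval 0.78 to 2.09).

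Among the 19 comparisons of a region with the strongest region of the same gene, 9 were above 0 beyond their interval, 1 was below and 9 were not distinguishable from 0. Of the 9 above, 6 had a peak in *Mettl3*-HKO alone, so they were listed only through the library in which they were higher, and their side is no result. The same holds for the 1 below, a region of *Hdac5* with a peak in the control alone. The endothelial markers had 7 of 7 promoter regions above 0, against 14.9% of all genes, and a median of 1.60. Of the 7, 5 were at least 2-fold higher, against 506 of 13163 genes. Counts were low, with 23 in the control and 28 in *Mettl3*-HKO at *Eng*, the lowest ratio, and 13 and 52 at *Stab2*, the highest. Peak calls of these regions were not looked up, so some may be listed only through 1 library. The part of a changed mix of cells in the values of the histone deacetylase genes was not tested. The 8 hepatocyte markers had a median of −0.65, from *Ttr* at −1.08 and *Hnf4a* at −0.94 to *Cps1* at −0.31 and *Alb* at 0.015, so all 7 promoter values of the family except *Hdac2* and *Hdac5* lay within their range. Of the other lists, 2 of 8 macrophage markers had a promoter region (summed 1.04 RPM in the control and 1.96 RPM in *Mettl3*-HKO), 2 of 8 stellate markers (13.8 and 3.05 RPM), 5 of 8 cholangiocyte markers (15.8 and 12.1 RPM) and 0 of 8 lymphocyte markers. Their medians were 1.29, −1.22 and −0.19 in that order. The stellate sum was mostly that of *Reln*, with 690 counts in the control and 132 in *Mettl3*-HKO, while *Col1a1* had 37 and 43. Among cholangiocyte markers *Sox9* had 520 and 397 counts and *Spp1* 13 and 34.

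Genes whose products work with or against the deacetylases had promoter medians nearer to 0 than the family. Of all 13163 genes with a promoter region, 2092 were at least 2-fold lower and 506 at least 2-fold higher. For the 33 subunits of histone deacetylase complexes, 27 had a promoter region, with a median log2 ratio of −0.45 and no region past 2-fold either way. They ran from *Mta2* at −0.90 (788 counts in the control and 465 in *Mettl3*-HKO) and *Mta1* at −0.83, both scaffolds of the NuRD complex, to *Arid4a* of the SIN3 complex at −0.090 and *Dnttip1* of the MiDAC complex at −0.020. All 10 histone acetyltransferases had one, with a median of −0.45 and 0 past 2-fold, from *Kat2b* at −0.95 (706 and 401 counts) and *Kat6a* at −0.82 to *Kat6b* at −0.36 and *Kat5* at 0.016. Among 14 partners of class IIa enzymes, 11 had one, with a median of −0.55. Only *Sik1*, a kinase that keeps class IIa enzymes in the cytosol, was at least 2-fold lower, with 1193 and 642 counts and a ratio of −1.03, and the others named by rule were *Sik2* at −0.70, *Prkd2* at −0.058 and *Ywhab* at 0.00095. Proteins that read acetyl-lysine had a median of −0.58 over 6 of 7 genes, with *Mllt3* at −1.22 (913 and 431 counts, at least 2-fold lower) and *Brd7* at −0.66 the lowest and *Brd2* at −0.37 and *Mllt1* at −0.36 the highest. The sirtuins, deacetylases that use NAD and are not related to the family, had a promoter region at 3 of 7 genes. *Sirt1* was at −0.65 and *Sirt4* at −0.64, whereas *Sirt6* had 234 and 337 counts and a ratio of 0.39 (interval 0.15 to 0.64). All genes together had a median of −0.57, and the lists have no test.

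**Figure D5:**
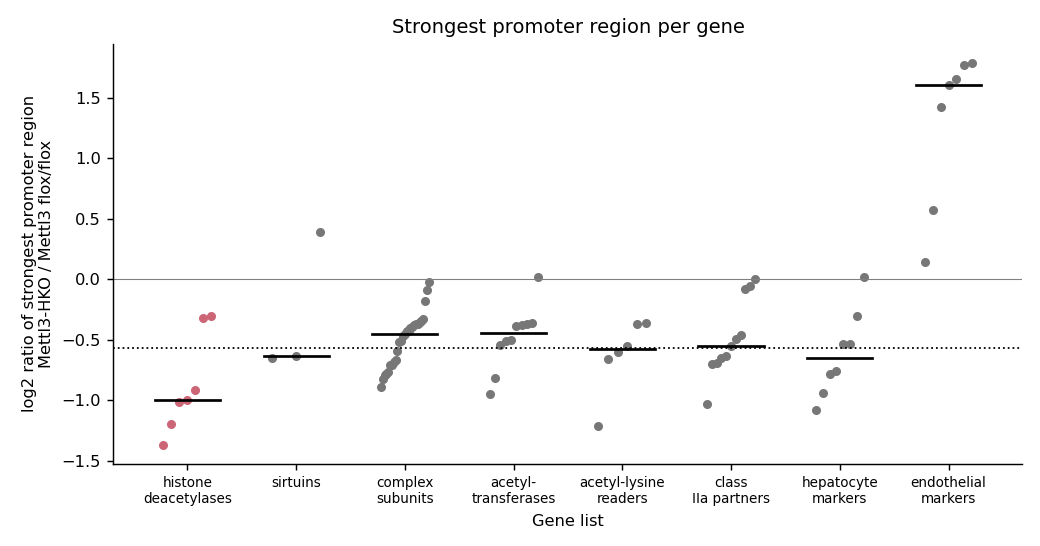
Log2 ratio of the strongest promoter region (vertical axis), 1 point per gene, for the histone deacetylases in red and 7 other gene lists in grey, with a bar at the median of each list and a dotted line at the median of all genes. The histone deacetylases have a median of −0.998 and the endothelial markers of 1.60, whereas the other lists shown lie from −0.65 to −0.45.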

How the data were processed

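ATAC-seq, in which the Tn5 transposase tags accessible DNA, was analysed for 1 pooled library of *Mettl3* flox/flox and 1 of *Mettl3*-HKO livers. The authors trimmed reads with skewer, aligned them with BWA to GRCm38, filtered them by mapping quality, pairing and mitochondrial origin, and called peaks per library with MACS2, with duplicates kept. How reads were counted on merged regions, and any shift for the Tn5 cut, is not given in the sources used here. For each region the authors deposited raw counts, RPM (with 1 read added), the fold enrichment, a ratio of reads per base to that of the genome, and a peak flag. Their column of log2 ratios was not used.

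Of 74821 rows, 5272 repeated a region and were dropped, and starts were converted to count from 1. Log2 ratios came from the counts with 1 read added. For intervals at 95%, the Clopper-Pearson bounds of a share of counts were turned into log2 ratios, and differences have exact conditional intervals of an odds ratio. They cover counting error only, and duplicates make reads less independent than they assume. With 1 library per group no p-value was computed, and calls are past 2-fold. The labels gave the groups. They give no replicate numbers.

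The members, gene lists and markers were chosen with earlier results of these data known. All members were named, and in every other list the 2 highest and 2 lowest genes. *Hdac3* had no region by symbol, and its Ensembl identifier was not in the reference used here, so identifiers could not be matched for it. Promoter windows from RefSeq (GRCm38.p6) were matched by symbol. The scalings, reads added, promoter window, signal filter, fold threshold, value per gene and peak filter were varied. Scripts were tested on simulated data and ran in Python 3.11.15 with pandas 2.3.3, numpy 2.4.6, matplotlib 3.10.9 and scipy 1.17.1.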

Additional observations from a re-analysis of the deposited data

How the results depend on the processing

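Every scaling raised all ratios by a constant, so the promoter values depend on it. The median of the 7 strongest promoter regions, −0.998, was −0.62 after centring on all regions, −0.49 when scaled to the reads in regions and −0.35 with the strongest 10% of promoters set to 0, and the promoter regions at least 2-fold lower numbered 1, 0 and 0 in place of 4. Under these 3 scalings the ratios of *Hdac1* and *Hdac4* turned positive. The median of the other regions, 0.52, was 1.03 with reads in regions and 1.17 with the strongest promoters, and it turned negative among regions of the upper 50% in mean signal (−0.62) and among those with a peak called in both libraries (−0.50). Other regions at least 2-fold lower, 4 in the report, numbered 2 under each of the 3 scalings, 2 with 10 reads added, 1 in the upper 50% of signal, 7 at 1.5-fold and 0 with a peak in both. Those at least 2-fold higher, 5 in the report, numbered 8, 10 and 10 under the scalings in the order above, 3 with 10 reads added, 0 in the upper 50% of signal, 8 at 1.5-fold, 1 with a peak in both and 10 with the regions inside the RefSeq spans, which were added after seeing the data. The cause of these changes was not tested, beyond the shift that a scaling adds and the fewer regions that a filter leaves. The difference between *Hdac1* and *Hdac2* kept its direction with 10 reads added and with summed promoter regions. No paired analysis was possible because each group is 1 pooled library, and for the same reason no replicate could be left out. Member regions with under 20 counts in a library have intervals over 1 log2 unit wide.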
